A study of Mus musculus with 10 samples.

Results

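Microglia sense extracellular ATP, ADP, UDP and adenosine through a small set of cell-surface proteins, and the RNA of 7 genes of this purinergic system was examined in mice given vehicle or GW2580. The genes were taken by their listed symbols and are P2ry12, P2ry13, P2ry6, P2rx4, P2rx7, Entpd1 and Adora3. All 7 were found among the 46152 genes counted, none was at 0 in all libraries, and all 7 passed the filter on low counts that left 28419 genes for testing.

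Cells that are damaged or active release ATP, which enzymes on the cell surface cut stepwise to ADP, AMP and adenosine. P2Y receptors are coupled to G proteins, P2X receptors are ion channels opened by ATP, and adenosine has receptors of its own. In the brain P2ry12 is among the best known genes of resting microglia, whose processes move toward a source of ADP through this receptor, and its RNA is known to fall when microglia leave the resting state.

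The RNA came from CD11b-positive cells of the brains of 10 C57BL/6J mice aged 8 to 12 weeks, enriched with magnetic beads after enzymatic dissociation and a Percoll gradient. The Vehicle group was 5 mice gavaged with 0.1% Tween 80 and 0.5% hydroxymethyl propyl-cellulose, and the GW2580 group was 5 mice gavaged for 8 days with GW2580, an inhibitor of the kinase of the growth factor receptor CSF1R, at 80 mg/kg/d in that same solution. Both groups were made up of 2 males and 3 females. A library is the RNA of 1 mouse and is called by group and number, as in Vehicle 1. The comparison asks how inhibition of CSF1R changes the transcripts of otherwise untreated microglia.

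The depth was 12550418 to 20854218 counted fragments in Vehicle libraries and 13228819 to 26079343 in GW2580 libraries. The TMM factors, which scale libraries for composition, ran from 0.691 in GW2580 3 to 1.61 in GW2580 4, and levels are given as CPM, counts relative to the library total after that scaling. Microglia markers (15 of 17 tested) were high in every library, with a sum of at least 21897 CPM in Vehicle and 27902 CPM in GW2580 libraries. On the first principal component, which held 43.6% of the variance of 10945 genes, Vehicle 5 lay at 108 on the side of GW2580 1, 3 and 4 (31.1 to 42.3), and GW2580 5 lay at -50.1 beside Vehicle 1 to 4 (-44.3 to -28.1). GW2580 2 lay between, at -9.05. Oligodendrocyte markers (7 of 8 tested) summed to 15379.5 CPM in Vehicle 2 and 3771 CPM in Vehicle 5 against at most 297 CPM in the other vehicle libraries and 163 to 1505 CPM with GW2580. Choroid plexus and ependymal markers (5 of 6 tested) summed to 25668 CPM in Vehicle 5, against 1203 to 2955 CPM in the other vehicle libraries and 151 to 3524 CPM with GW2580. Monocyte and granulocyte markers (8 of 8 tested) summed to 17029 CPM in Vehicle 1, to 304 CPM in Vehicle 5 and to 310 to 5018 CPM with GW2580, and 7 of 8 were below 0 in their fold change with 1 called lower. Border macrophage markers (6 of 7 tested) summed to 88.6 to 113 CPM with vehicle and 54.2 to 281 CPM with GW2580, with 4 of 6 above 0 in their fold change and Mrc1 called higher. Also called lower were 4 choroid plexus and ependymal, 3 oligodendrocyte, 3 lymphocyte and platelet, 2 astrocyte and 2 neuron markers. In these lists 0 were called higher, and 0 endothelial and mural markers were called. Of fragments with a single alignment, the share outside annotated exons was 47.7 to 59.8% in Vehicle libraries and 68.0, 56.1, 47.1, 70.8 and 64.7% in GW2580 1 to 5. The part of these in the results was not tested beyond the covariate fits. With that share as a covariate, P2ry13, P2rx7 and Entpd1 had an unadjusted p under 0.05 (edgeR adjusted p = 0.440 for each), beside 11.3% of tested genes. With the mean level of neuron, oligodendrocyte and astrocyte markers as a covariate, no member passed p under 0.05, beside 11.5% of tested genes. In that fit 6 of 7 members kept a positive fold change while that of P2ry12 became -0.10. These are bulk libraries, so fewer cells of a type and less RNA per cell cannot be told apart.

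The genes lie on 4 chromosomes of GRCm38. P2ry12 (NCBI gene 70839, chr3:59216271-59262985) and P2ry13 (74191, chr3:59207892-59210882) are neighbours on the minus strand, 5388 bases apart, and both lie inside Med12l, which runs on the plus strand and shares no exon base with either. P2rx7 (18439, chr5:122643927-122692336) and P2rx4 (18438, chr5:122707518-122729739) lie near each other on the plus strand. P2ry6 (233571) is at chr7:100937630-100975498 on the minus strand, Entpd1 (12495) at chr19:40612366-40741602 on the plus strand and Adora3 (11542) at chr3:105904421-105908928 on the plus strand. Of the 2372 exon bases of Adora3, 1640 (69.1%) are also exon of Tmigd3 on the same strand, and fragments on exons of both genes entered the count of neither, so its count of 4002 in all libraries rests mainly on 732 bases. P2rx4 shares 78 exon bases with Camkk2 and P2rx7 shares 119 with Mir8115, and fragments were counted without regard to strand.

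The stretches before the starts of P2ry12, P2ry13 and Entpd1 are shown because P2ry13 and Entpd1 kept the most similar pattern over the libraries of any pair of members, while P2ry12, the neighbour of P2ry13, lay further from both (root mean square log2 difference 0.18 for P2ry13 and Entpd1, 0.46 and 0.52 for P2ry12 against them). Sequences are from RefSeq, GRCm38.p6, written 5′ to 3′ on the strand of the gene, and cover the bases of the 250 before the start that lie on no counted exon. Capitals mark GAGGAA, the core read by PU.1, the factor that sets the myeloid lineage.
P2ry13, chr3:59210883-59211132, minus strand: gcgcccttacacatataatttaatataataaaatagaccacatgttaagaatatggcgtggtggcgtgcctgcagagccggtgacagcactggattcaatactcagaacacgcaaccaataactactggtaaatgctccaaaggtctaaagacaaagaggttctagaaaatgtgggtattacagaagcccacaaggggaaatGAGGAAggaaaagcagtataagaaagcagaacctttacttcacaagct
P2ry12, chr3:59262986-59263124, minus strand: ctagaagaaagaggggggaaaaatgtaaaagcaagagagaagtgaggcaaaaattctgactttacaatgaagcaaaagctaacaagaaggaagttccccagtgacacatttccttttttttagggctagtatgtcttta
Entpd1, chr19:40659520-40659765, plus strand, before the start inside the gene: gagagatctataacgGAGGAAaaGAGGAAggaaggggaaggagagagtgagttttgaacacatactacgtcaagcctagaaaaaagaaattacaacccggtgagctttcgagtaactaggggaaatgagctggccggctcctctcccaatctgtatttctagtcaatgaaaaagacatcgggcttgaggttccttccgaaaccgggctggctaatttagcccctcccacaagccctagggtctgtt

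The stretch of P2ry13 holds GAGGAA 48 bases before the start, and that of Entpd1 holds it 235 and 227 bases before its inner start. That of P2ry12 holds none of the searched motifs, and its E-box lies further out, 228 bases before the start. On either strand, GAGGAA was found in the 250 bases before 3 of the 8 starts listed for 6 of the members, those of P2ry13, Adora3 and Entpd1, and before 23.3% of 32851 mouse starts. TGACTCA, read by AP-1, was found before Adora3 and P2rx7 and before 4.46% of all starts, the E-box CACGTG before P2ry12 and 6.02%, the GC box GGGCGG before P2rx7 and 32.7%, and the TATA box TATAAA before 0 of the 8 starts and 12.4%. The searched motifs do not overlap in these windows, and a match describes the letters only. Only exact matches were searched, and none was found before the outer start of Entpd1. Adora3 lay nearer in pattern to P2ry12 (0.27) than to P2ry13 (0.40) or Entpd1 (0.39). A link between motif and pattern was not tested.

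Per length of exon, P2ry12 was the highest of the 7 genes in all 10 libraries. Its level was 1515 ± 580 CPM per kb with vehicle and 1593 ± 746 CPM per kb in GW2580 libraries (SD, n = 5 each). P2ry13, which also binds ADP, followed at 345 ± 76.7 and 588 ± 337 CPM per kb, 3.39-fold under P2ry12 on average. These ADP receptors made up most of the RNA of the 7 genes, with 57.7 to 77.9% of the summed level per kb for P2ry12 and 15.3 to 27.6% for P2ry13.

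Entpd1 and P2ry6 came next and could not be put in order. Entpd1 encodes CD39, the enzyme that removes phosphates from ATP and ADP, and was at 61.5 ± 12.01 CPM per kb with vehicle and 107 ± 61.0 in GW2580 libraries (SD, n = 5 each). P2ry6, the UDP receptor tied to uptake of debris by microglia, was at 72.8 ± 15.6 and 86.1 ± 41.7 CPM per kb. Entpd1 was higher than P2ry6 in 5 of 10 libraries, 1 with vehicle and 4 with GW2580 (exact sign-flip permutation test over 10 libraries, two-sided p = 0.918).

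The ion channels were lower. P2rx4 was at 30.6 ± 3.81 CPM per kb with vehicle and 37.4 ± 19.8 with GW2580, and P2rx7, which needs high ATP to open and is known for inflammasome activation, at 15.4 ± 2.01 and 23.2 ± 10.7 (SD, n = 5 each). Adora3, the A3 adenosine receptor, was at 9.68 ± 2.25 and 11.2 ± 4.65 CPM per kb over all its exons. Each of the other neighbours in the order differed in 10 of 10 libraries (exact sign-flip permutation test, p = 0.00195, the smallest that 10 libraries can give, adjusted p = 0.00234 over 6 neighbour pairs, ordered by these same values). The place of Adora3 depends on its shared exons, since over the 732 bases of its own it was at 31.4 ± 7.31 and 36.2 ± 15.1 CPM per kb, higher than P2rx7 in 9 of 10 libraries and than P2rx4 in 4 of 10.

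**Figure D1:**
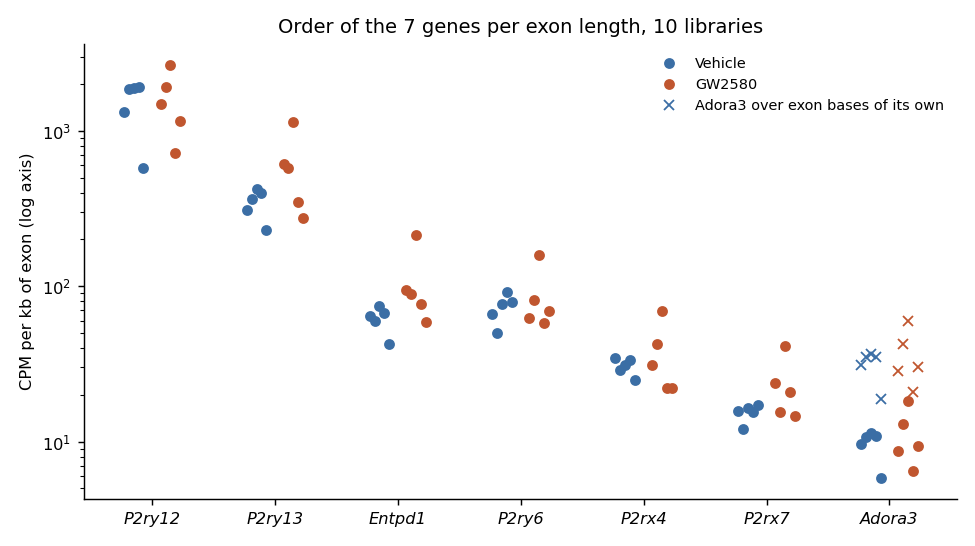
Level of each gene in CPM per kb of exon (log axis) in the 5 Vehicle and 5 GW2580 libraries, 1 point a library, with crosses for Adora3 over the exon bases that it does not share. P2ry12 and P2ry13 lie above the other 5 genes in every library, and Entpd1 and P2ry6 overlap.

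A gene was called where it differed by more than 2-fold with a p below 0.05 before adjustment. By this rule 0 of 7 members were called, beside 10.7% of the 28419 genes tested (4.01% higher and 6.7% lower with GW2580). No member had an unadjusted p under 0.05 at any fold change (edgeR quasi-likelihood test), which 14.7% of tested genes had (6.61% higher and 8.12% lower), and no gene of all those tested passed an adjusted p of 0.05 in that test, while DESeq2 passed 177 genes and no member. All 7 fold changes were above 0, with a median log2 value of 0.29 beside -0.03 for all tested genes, and the Vehicle and GW2580 libraries overlapped for all 7. Groups that did not overlap were found for 3.03% of tested genes (2.04% higher and 0.985% lower). Without Vehicle 5 and GW2580 5, 4844 genes passed an adjusted p of 0.05 in the edgeR test, and none of the 7 members did (lowest adjusted p = 0.169, for P2rx7). Vehicle 5 and GW2580 5 were recognised from expression values of the same samples, so this count is no independent test.

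Of the ADP receptors, P2ry12 was close to even. In Vehicle 1 to 5 it was at 3375, 4749, 4848, 4923 and 1481 CPM, and in GW2580 1 to 5 at 3832, 4919, 6824, 1852 and 2940 CPM. Vehicle 5 was the lowest of all 10 libraries, and 1 GW2580 library lay above all vehicle libraries. The means were 3875 ± 1482 and 4074 ± 1908 CPM (SD, n = 5 each), a log2 fold change of 0.07 ± 0.49 (SE; edgeR quasi-likelihood p = 0.885, adjusted p = 0.957; exact permutation p = 0.897). The 95% interval ran from a 0.506-fold to a 2.18-fold level, and levels between these bounds are compatible with the data from 5 mice a group. With 1 library left out the log2 value ran from -0.19 without GW2580 3 to 0.26 without GW2580 4, with -0.13 without Vehicle 5, and it was -0.14 without both Vehicle 5 and GW2580 5.

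P2ry13 had a larger difference. It was at 779.7, 924, 1066, 1010.2 and 585 CPM in Vehicle 1 to 5 and at 1537, 1459, 2866, 877 and 692 CPM in GW2580 1 to 5. GW2580 1, 2 and 3 lay above every vehicle library, and GW2580 4 and 5 lay within their range. The means were 873 ± 194 and 1486 ± 853 CPM (SD, n = 5 each), a log2 fold change of 0.77 ± 0.44 (SE; edgeR quasi-likelihood p = 0.0996, adjusted p = 0.414; exact permutation p = 0.151). Its 95% interval ran from 0.891-fold to 3.25-fold.

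With GW2580 3 left out, the log2 value of P2ry13 was 0.39. Without GW2580 4 it was 0.92 with an unadjusted p under 0.05 in the same edgeR test (adjusted p = 0.427), and over the 26 alternative fits the adjusted p ran from 0.244 to 0.9999.

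Entpd1, the enzyme that ends signalling by ATP and ADP, gave the largest fold change of the 7. It was at 319 CPM in Vehicle 1, 296 in Vehicle 2, 368 in Vehicle 3, 332 in Vehicle 4 and 209 in Vehicle 5. In GW2580 1 to 5 it was at 472, 443, 1057, 381 and 293 CPM, so that 4 of 5 lay above every vehicle library and GW2580 5 lay within their range. The means were 305 ± 59.6 and 529 ± 303 CPM (SD, n = 5 each), a log2 fold change of 0.79 ± 0.39 (SE; edgeR quasi-likelihood p = 0.0633, adjusted p = 0.3602; exact permutation p = 0.0556), with a 95% interval from 0.966-fold to 3.12-fold. The unadjusted p was under 0.05 in 6 of 26 alternative fits, among them DESeq2 (adjusted p = 0.289) and the fits without GW2580 4 (adjusted p = 0.418) and without GW2580 5 (adjusted p = 0.209). The adjusted p ran from 0.197 to 0.9999 over the 26. Without GW2580 3 the log2 value was 0.38.

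P2ry6 ranged from 118 to 216 CPM with vehicle (median 183) and from 138 to 376 CPM with GW2580 (median 164). Only GW2580 3 lay above the vehicle libraries, and the log2 fold change was 0.24 ± 0.36 (SE; edgeR quasi-likelihood p = 0.508, adjusted p = 0.767; exact permutation p = 0.683), and the log2 value was -0.10 without that library.

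Of the ATP-gated channels, P2rx4 ranged from 68.1 to 93.6 CPM with vehicle (median 85.3) and from 60.1 to 190.3 CPM with GW2580 (median 84.7). In GW2580, 2 libraries lay above and 2 below all those of the Vehicle group. The log2 fold change was 0.29 ± 0.36 (SE; edgeR quasi-likelihood p = 0.430, adjusted p = 0.719; exact permutation p = 0.698), and -0.058 without GW2580 3.

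P2rx7 was at 102, 77.1, 107, 100.2 and 110.3 CPM in Vehicle 1 to 5 and at 154, 100.1, 265, 135 and 93.5 CPM in GW2580 1 to 5. GW2580 1, 3 and 4 lay above all vehicle libraries, and the other two did not. The log2 fold change was 0.59 ± 0.34 (SE; edgeR quasi-likelihood p = 0.106, adjusted p = 0.423; exact permutation p = 0.119), with an unadjusted p under 0.05 in 4 of 26 alternative fits and an adjusted p of 0.169 to 0.9999 over them. Without GW2580 3 it was 0.28, and without both GW2580 3 and GW2580 4 it was 0.24. Adora3 ranged from 13.8 to 26.9 CPM with vehicle (median 25.5) and from 15.2 to 43.5 CPM with GW2580 (median 22.1), with a log2 fold change of 0.21 ± 0.33 (SE; edgeR quasi-likelihood p = 0.543, adjusted p = 0.788; exact permutation p = 0.667) that was -0.043 without GW2580 3.

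**Figure D2:**
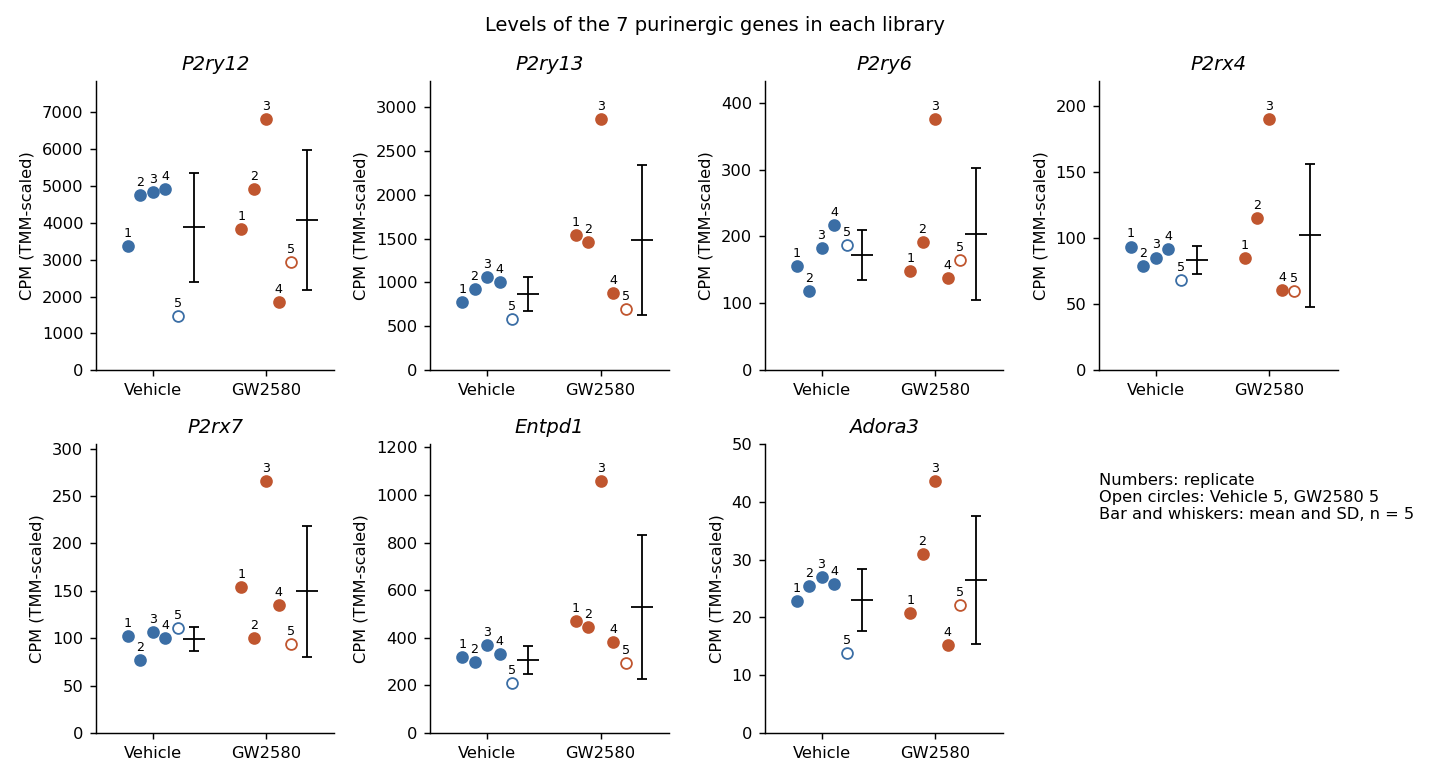
Level of each gene in CPM (linear axes from 0) in the 5 Vehicle and 5 GW2580 libraries, with the replicate number beside each point, open circles for Vehicle 5 and GW2580 5, and the mean and SD of each group beside the points. After TMM scaling, GW2580 3, the library with the lowest factor (0.691), is the highest for all 7 genes. The groups overlap in each panel.

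In TMM-scaled CPM, all 7 genes spread more widely among GW2580 libraries than among vehicle libraries, a difference that was not tested. These levels are divided by the TMM factors, which themselves spread more with GW2580. They ran from 0.856 in Vehicle 5 to 0.975 in Vehicle 4, and from 0.691 in GW2580 3 to 1.61 in GW2580 4. The coefficient of variation was 12.5 to 38.2% with vehicle and 41.6 to 57.4% with GW2580, where GW2580 3 was the highest library for each gene. Without GW2580 3 it was 14.5 to 38.5% in the GW2580 group, and without Vehicle 5 it was 6.73 to 24.7% in the Vehicle group. With both left out, P2ry6 spread less with GW2580 (14.5%) than with vehicle (24.7%). Of the 15 microglia markers tested, 12 were above 0 in their fold change and 3 were called, all higher, among them Csf1r, the gene of the inhibited receptor, at a log2 fold change of 1.28 ± 0.56 (SE; edgeR adjusted p = 0.318). In GW2580 3 the 15 markers summed to 84749 CPM after the same scaling, against 27902 CPM in the lowest GW2580 library and 21897 to 40872 CPM with vehicle. Early response genes, which rise during dissociation, summed to 84305 CPM in GW2580 3 against 28913 to 43288 CPM with vehicle. The part of these genes and of the scaling in the spread was not tested.

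**Figure D3:**
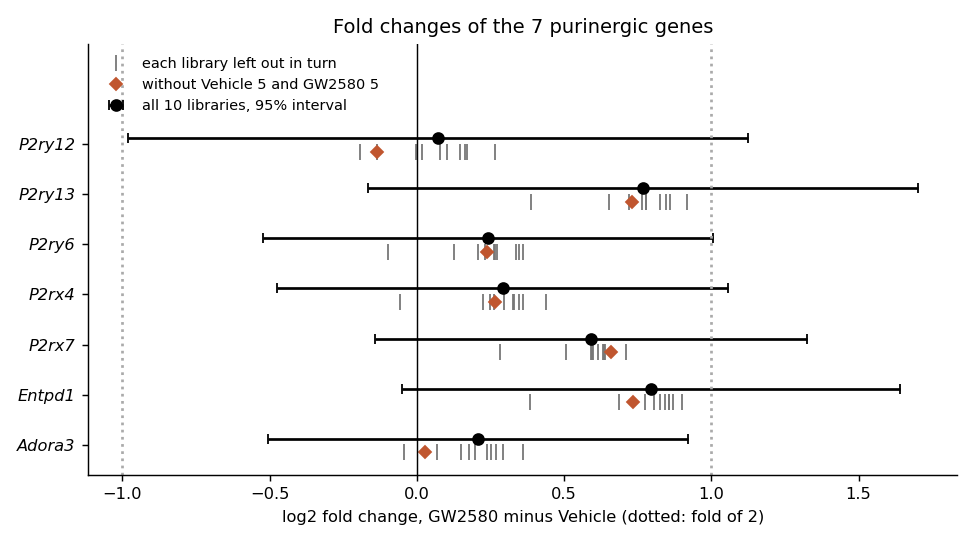
Log2 fold change of each gene, GW2580 minus Vehicle, with its 95% interval over all 10 libraries (black), the values with each library left out in turn (grey ticks) and the value without Vehicle 5 and GW2580 5 (orange diamonds). All 7 intervals include 0, and those of Entpd1, P2ry13 and P2rx7 reach furthest to the right.

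Levels were then set against other microglial RNA in the same library, which removes the scaling between libraries. Relative to the mean of the 15 microglia markers, Entpd1 was higher by 0.33 on the log2 scale with GW2580 (exact permutation p = 0.0397, adjusted p = 0.278 over the 7 genes, n = 5 each), and 4 of 5 GW2580 libraries lay above all vehicle libraries. In 9 of 15 alternatives, such as leaving out 1 of several libraries, that p was above 0.05, and with another prior count it stayed at 0.0397. The difference of P2ry13 was 0.28 (exact permutation p = 0.143), with 4 GW2580 libraries above and 1 below those of the Vehicle group. The differences were -0.28 for P2ry12, -0.18 for P2ry6, -0.18 for P2rx4, 0.15 for P2rx7 and -0.19 for Adora3, and none of the 7 passed an adjusted p of 0.05. The 15 markers include Csf1r, and 12 of them were above 0 in their own fold change (median log2 fold change 0.50). A negative difference is therefore relative to markers that were mostly higher with GW2580. With the median of the markers in place of their mean, all 7 values were positive. The markers were not centred, so in each library this median is the level of the 1 marker ranked in the middle. By mean CPM that marker was Siglech in both groups (log2 fold change -0.27 ± 0.48 SE). The 7 values therefore moved together. Those of P2ry12, P2ry6, P2rx4 and Adora3 became 0.29, 0.39, 0.38 and 0.38, and those of Entpd1, P2ry13 and P2rx7 became 0.90, 0.85 and 0.72 (exact permutation p = 0.0635 for Entpd1, lowest adjusted p of the 7 = 0.250). The size for all 7 genes, and the direction for 4, thus depended on how the markers were summarised.

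Ratios between members compare pairs of genes directly. Of 21 pairs, 2 had an unadjusted exact permutation p under 0.05 and none passed after adjustment over the pairs (lowest adjusted p = 0.262). The ratio of Entpd1 to P2rx4 was 341, 376, 432, 362 and 307 Entpd1 counts per 100 P2rx4 counts in Vehicle 1 to 5 and 557, 385, 555, 629 and 488 in GW2580 1 to 5, a log2 difference of 0.51 (exact permutation p = 0.0159, n = 5 each). All GW2580 libraries but GW2580 2 lay above the Vehicle group. The ratio of P2ry13 to P2rx4 differed by 0.46 (exact permutation p = 0.0317), again with 4 of 5 GW2580 libraries above the Vehicle group.

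The ratio of the neighbouring ADP receptors depended on the libraries that stand apart. There were 23.1, 19.5, 22.0, 20.5 and 39.5 P2ry13 counts per 100 P2ry12 counts in Vehicle 1 to 5 and 40.1, 29.7, 42.0, 47.3 and 23.6 in GW2580 1 to 5. Vehicle 5 lay among the GW2580 libraries and GW2580 5 beside the Vehicle group. Over all 10 libraries the log2 difference was 0.56 (exact permutation p = 0.0556, adjusted p = 0.262), and without those 2 libraries it was 0.89 (exact permutation p = 0.0286, the smallest that 4 against 4 can give, adjusted p = 0.150).

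The ratio of Entpd1 to P2ry12 was also highest in Vehicle 5 among vehicle libraries, with 9.47, 6.23, 7.60, 6.75 and 14.1 Entpd1 counts per 100 P2ry12 counts in Vehicle 1 to 5 and 12.3, 9.01, 15.5, 20.6 and 9.98 in GW2580 1 to 5. GW2580 3 and 4 lay above every vehicle library. The log2 difference was 0.61 over all libraries (exact permutation p = 0.0794) and 0.89 without Vehicle 5 and GW2580 5 (exact permutation p = 0.0571). These libraries were recognised from expression values of the same samples, so the values without them are no independent test. The adjusted p of these pairs was above 0.05 with and without them.

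**Figure D4:**
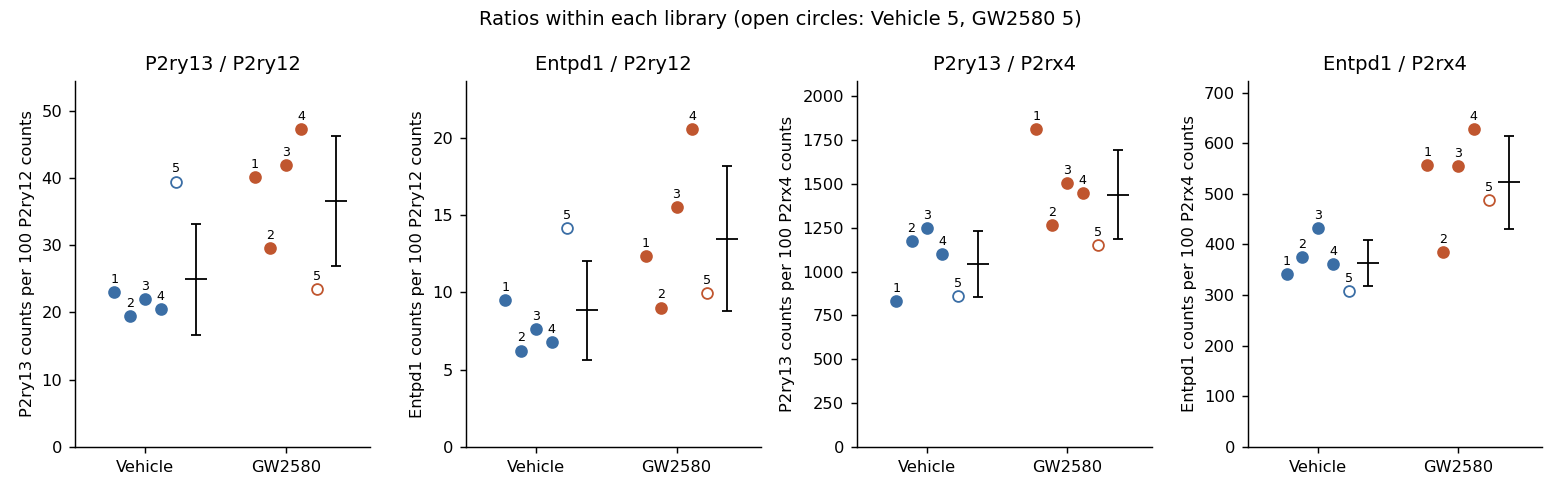
Counts of P2ry13 and of Entpd1 per 100 counts of P2ry12 and of P2rx4 in each library (linear axes from 0), with the mean and SD of each group, the replicate numbers and open circles for Vehicle 5 and GW2580 5. Over P2ry12, Vehicle 5 lies among the GW2580 libraries, and over P2rx4, 4 of 5 GW2580 libraries lie above the Vehicle group for both genes.

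Patterns over the 10 libraries were compared by the root mean square difference of log2 CPM after centring each gene, among 7579 other genes of at least 20 CPM. P2ry12 was closest to Gpr34 (0.11), a receptor gene of the P2Y12-like group, followed by Gtf2h2 (0.14). Its own deviation from its mean over the libraries was 0.65 on this scale. P2ry13 was closest to the fructose transporter gene Slc2a5 (0.16), Tifab (0.17) and Ccng2 (0.17), and Entpd1 to Smad1 (0.11), Rasgrp3 (0.11) and Adck2 (0.11).

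Among the other members, P2ry6 was closest to Tgfb1 (0.13), Pcyox1l (0.13) and Pou2f2 (0.15), P2rx4 to the adaptor gene Myd88 (0.085), Edem2 (0.097) and Lamp1 (0.098), and P2rx7 to Asxl1, Zfp839 and Slc8a1 (all 0.11). Adora3 was closest to Gm14051 (0.071), Dnttip2 (0.10) and Fez2 (0.12). Within the 7 genes the closest pair was P2ry13 and Entpd1 (0.18) and the most distant was P2ry12 and P2rx7 (0.72).

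No member passed the test of a difference in response between the sexes. The fold changes in male mice were -0.0011 to 0.72 and in female mice 0.05 to 0.93 on the log2 scale, and the interaction of sex and treatment gave an edgeR quasi-likelihood p of 0.706 to 0.960 for the 7 genes, where 2.52% of tested genes were under 0.05. With 2 male and 3 female mice per group, intervals of these differences are wide, with standard errors from 0.76 to 1.19.

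The rest of the nucleotide pathway was read from 50 further genes in 9 lists, of which 45 passed the filter. Of these, 4 were called, all lower with GW2580, and 1 more was higher at an unadjusted edgeR p under 0.05, against 10.7% of all tested genes called. Their median log2 fold change was 0.04, and 26 were above and 19 below 0. None passed an adjusted p of 0.05.

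The 4 called genes were Adora2b, the low-affinity adenosine receptor, Entpd2, an ATPase of the CD39 family, Alpl, a phosphatase that can make adenosine from AMP, and the channel gene Panx2. Adora2b was at 1.89 to 6.30 CPM in Vehicle 1 to 4, 32.9 CPM in Vehicle 5 and 1.62 to 3.89 CPM with GW2580 (log2 fold change -1.83 ± 0.73 SE; edgeR quasi-likelihood p = 0.0248, adjusted p = 0.289, exact permutation p = 0.333). Entpd2 was at 11.3 CPM in Vehicle 2, 16.4 CPM in Vehicle 5, 1.67 to 2.96 CPM in the other vehicle libraries and 1.72 to 2.51 CPM with GW2580 (-1.78 ± 0.58 SE; edgeR quasi-likelihood p = 0.00868, adjusted p = 0.280, exact permutation p = 0.127). Panx2 had the same 2 high libraries, at 12.5 and 13.1 CPM, and Alpl was at 40.9 CPM in Vehicle 5 and at most 14.8 CPM elsewhere. Vehicle 2 and Vehicle 5 are the libraries high in markers of other brain cells, and also the vehicle libraries where these 4 genes were highest. A smaller difference without them was therefore built in. The log2 values were then 0.18 for Adora2b, -0.16 for Entpd2, 0.07 for Alpl and -0.29 for Panx2, and none of the 4 had an unadjusted p under 0.05 in the edgeR test. Without Vehicle 5 alone they were -0.34, -1.16, -0.39 and -1.43, with an unadjusted edgeR p of 0.032 for Entpd2 and 0.022 for Panx2. The part of other brain cells in these calls was not tested beyond the covariate fit.

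Enpp1, an enzyme that cuts ATP to AMP and pyrophosphate and also degrades cGAMP, was the gene that was higher before adjustment in the edgeR test. It was at 17.3, 12.95, 18.8, 18.4 and 13.8 CPM in Vehicle 1 to 5 and at 29.2, 20.4, 32.9, 27.3 and 18.6 CPM in GW2580 1 to 5, where 4 of 5 lay above all vehicle libraries. The log2 fold change was 0.66 ± 0.28 (SE; edgeR quasi-likelihood p = 0.0307, adjusted p = 0.303; exact permutation p = 0.0159), and 0.49 without Vehicle 2 and Vehicle 5 (edgeR adjusted p = 0.423). It stayed positive in all 26 alternative fits, between 0.49 and 0.91, with an unadjusted p under 0.05 in 16 and an adjusted p under 0.05 in 0.

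Of the other P2Y receptors 0 of 6 had an unadjusted edgeR p under 0.05. The highest in CPM was P2ry10b, at 11.02 ± 1.24 CPM with vehicle and 13.6 ± 6.35 in GW2580 libraries (SD, n = 5 each). P2ry14 was under 0.05 in the exact permutation test alone, with a log2 fold change of 0.64 ± 0.34 (SE; exact permutation p = 0.0476; edgeR quasi-likelihood p = 0.0812, adjusted p = 0.388). Of the other P2X genes 2 of 5 were tested and neither passed, with P2rx3 at 13.1 ± 2.56 and 14.1 ± 3.54 CPM. P2rx1 (33 counts in all) and P2rx5 (0 counts) also have exons on another contig of the assembly. Fragments that align to both places were not counted, so low counts of these genes cannot be read as low RNA. Exons on another contig do not by themselves prevent counting, as Slc2a5 has them and had 9869 counts. P2rx2 (113 counts) has none and was also below the filter. Adora1 was the highest of the other adenosine receptors at 18.9 ± 11.2 and 14.7 ± 10.9 CPM, and none of the 3 was above 0 in its fold change.

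Of 8 surface hydrolases besides Entpd1, 3 are described above (Entpd2, Alpl and Enpp1), and of the other 5 the gene with the highest mean over all libraries was Entpd8, at 11.2 ± 4.94 and 7.18 ± 2.63 CPM (SD, n = 5 each). Of the intracellular nucleoside diphosphatases 0 of 3 tested passed, with Entpd6 at 32.7 ± 21.1 and 33.6 ± 16.6 CPM. Of 7 genes of adenosine uptake and metabolism 0 passed, with the lysosomal nucleoside transporter Slc29a3 at 257 ± 48.1 and 355 ± 151 CPM (log2 fold change 0.47 ± 0.35 SE; edgeR adjusted p = 0.539). In nucleotide release, the vesicular nucleotide transporter Slc17a9 was at 26.7 ± 2.27 and 28.7 ± 10.2 CPM beside Panx2.

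Gpr34 was at 1051 ± 416 CPM with vehicle and 1155 ± 548 CPM in GW2580 libraries (SD, n = 5 each; log2 fold change 0.14 ± 0.47 SE; edgeR adjusted p = 0.911). Of 11 genes that act after the receptors, 0 passed, and the G protein gene Gnai2, which serves P2Y12 and P2Y13, was at 782 ± 79.0 and 903 ± 441 CPM.

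**Figure D5:**
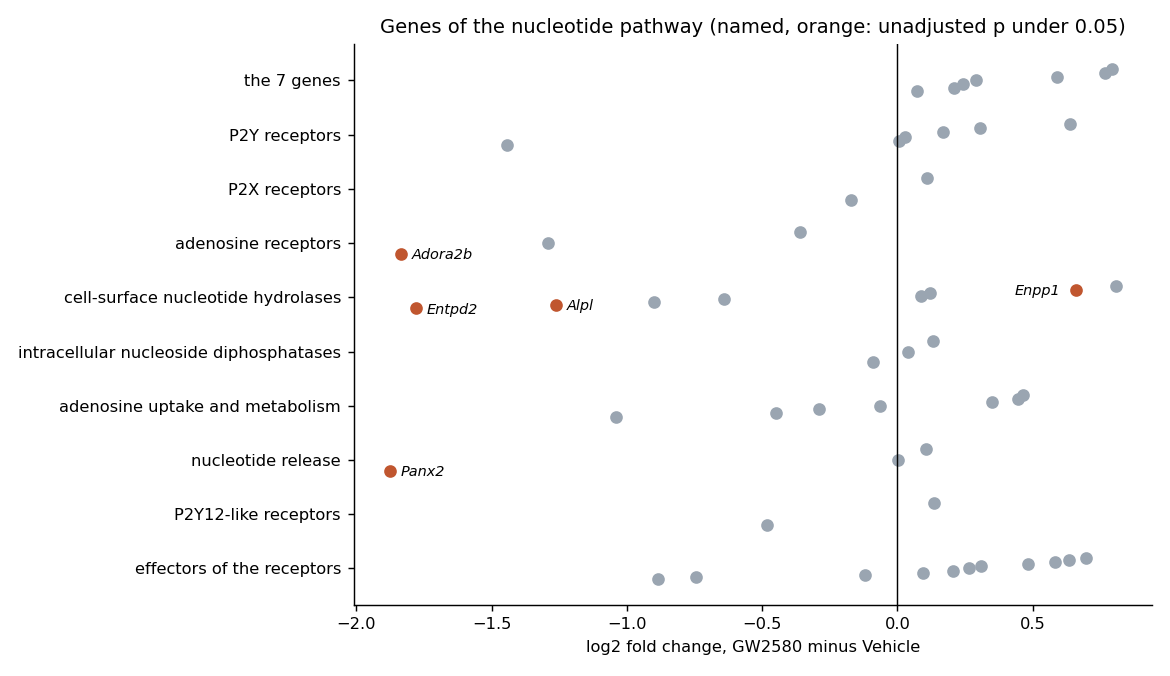
Log2 fold change, GW2580 minus Vehicle, of the 7 genes and of the 45 tested genes of the 9 other lists, 1 point a gene, with genes of unadjusted edgeR p under 0.05 named and in orange. The 4 named genes on the left are those whose high values lie in Vehicle 2 and Vehicle 5 or Vehicle 5 alone, and Enpp1 is the named gene on the right.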

How the data were processed

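From trimmed read pairs aligned to GRCm38 (Trimmomatic 0.33, STAR 2.6.0), the authors made 1 file of unstranded fragment counts per library over RefSeq gene models and deposited the counts unnormalized, with gene lengths in bases (featureCounts 1.6.3 in the file headers). Fragments that were ambiguous, off exons or aligned to more than 1 place were counted apart by the authors and entered no gene. Symbols were found for 46029 of 46152 genes.

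TMM scaling was applied to genes that exceeded 1 CPM in 3 or more libraries, and these were tested with edgeR 4.0.16 (R 4.3.3) by the quasi-likelihood test with treatment as the only term, as in the methods of the study, with Benjamini-Hochberg adjustment over all genes. A standard error is the log2 fold change over the square root of F, and its 95% interval uses the t distribution. Exact permutation tests were two-sided over the 252 ways of choosing 5 of 10 libraries (smallest p 0.00794) on log2 CPM with a prior count of 2 (scipy 1.17.1). The fits were tested on simulated counts. Genes named beyond the 7 were pathway genes with an unadjusted p under 0.05, the highest other gene of each list, the 3 closest patterns per member, neighbours within 10 kb and microglia markers, of which 1 gene is not reported here. The members and lists were chosen with earlier results of these data known. Alternatives were other scalings, filters, DESeq2 1.42.0, limma-voom (limma 3.58.1), covariates, a replicate block and leaving out libraries, of which the exon covariate and the fit without GW2580 3 and 4 were chosen after seeing the data. The p-values measure the spread between these 10 mice.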

Additional observations from a re-analysis of the deposited data

Results flagged for a closer look

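In the 14 groups of 5 values (7 genes in the Vehicle and GW2580 groups), 2 had a library set apart from the others by a gap over 0.710 of the group's range, and chance sets about 1 group in 20 apart in this way. Vehicle 2 was the lowest vehicle library for P2rx7, at 6.27 on the log2 CPM scale (77.1 CPM). Vehicle 5 was the lowest vehicle library for Adora3, at 3.795 on the log2 CPM scale (13.8 CPM), and it is also the library furthest from the other vehicle libraries on the first principal component.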

How the results depend on the processing

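The count of members called was 0 in all 26 alternative fits. Members with an unadjusted p under 0.05 numbered 3 with library size alone, 1 with upper quartile scaling, 2 at a mean CPM of at least 10, 1 with DESeq2, 3 with the percent of fragments on no annotated exon as a covariate (chosen after seeing the data, higher in GW2580 1, 4 and 5 than in every vehicle library) and 0 to 2 with 1 library left out. They were P2ry13 (0.87) and P2rx7 (0.77) with Entpd1 (0.91) with library size alone, P2rx7 (0.62) with upper quartile scaling, P2rx7 (0.61) and Entpd1 (0.73) at a mean CPM of at least 10, Entpd1 (0.76) with DESeq2, and P2ry13 (0.89), P2rx7 (0.71) and Entpd1 (0.90) with that covariate, as log2 fold changes. Library size alone moved the median of all tested genes from -0.03 to 0.23, and relative to it these 3 genes were at 0.64, 0.54 and 0.68. Testing genes with no filter on low counts moved that median to -0.12. Of all tested genes, 16.6% had an unadjusted p under 0.05 with library size alone, 13.8% with upper quartile scaling and 19.0% at a mean CPM of at least 10. The share was 16.3% with DESeq2 and 11.3% with the exon covariate. With 1 library left out it was 7.70% (without GW2580 1) to 22.3% (without GW2580 5).

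P2ry12 turned to -0.011 at a mean CPM of at least 10, -0.10 with the glial marker covariate, -0.12 without Vehicle 2 and 5 and -0.14 without Vehicle 5 and GW2580 5, P2ry6 to -0.023 without GW2580 3 and 4 (chosen after seeing the data) and Adora3 to -0.0011 in male mice alone. With each library left out in turn, the log2 fold change was -0.19 to 0.26 for P2ry12, 0.39 to 0.92 for P2ry13, -0.10 to 0.36 for P2ry6, -0.058 to 0.44 for P2rx4, 0.28 to 0.71 for P2rx7, 0.38 to 0.90 for Entpd1 and -0.043 to 0.36 for Adora3, and the lowest value of each came without GW2580 3. Against the median of the microglia markers, P2ry12 was at 0.29, P2ry6 at 0.39, P2rx4 at 0.38 and Adora3 at 0.38, and Entpd1 moved from 0.33 to 0.90, P2ry13 from 0.28 to 0.85 and P2rx7 from 0.15 to 0.72. The shift against the median comes from the reference level, which is shared by all these genes. The cause of the other changes was not tested.

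Pathway genes called numbered 4, with 7 under no filter on low counts, 0 at a mean CPM of at least 10, 1 with limma-voom, 0 with the glial marker covariate, 0 with the exon covariate, 2 without Vehicle 2 and 5, 1 without GW2580 3 and 4, 1 in female mice and 2 to 7 with 1 library left out (7 without Vehicle 1, 2 without GW2580 1). Over all tested genes, 3046 were called, against 4802 with no filter, 713 at a mean CPM of at least 10, 1730 with the exon covariate, 1185 without GW2580 3 and 4, 6057 without Vehicle 5 and GW2580 5, 4621 in male and 794 in female mice, and 1684 (without GW2580 1) to 4848 (without GW2580 5) with 1 library left out.

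Same-numbered libraries correlated at 0.04, 0.32, 0.10, -0.32 and -0.51 over 10945 genes. These values neither show nor exclude a pairing of the samples by number. The replicate block changed no call among the 7 genes (P2ry13 0.62, Entpd1 0.67) and left 1 pathway gene called. Depth was lowest for Adora3, with 245 to 783 counts a library.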

Other observations

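Several genes overlap a member or lie within 10 kb of it. Med12l, which spans P2ry12 and P2ry13 on the other strand, was at 61.4 ± 15.5 CPM in Vehicle and 66.6 ± 16.2 CPM in GW2580 libraries (SD, n = 5 each; log2 fold change 0.12 ± 0.31 SE). Tmigd3, which shares exon bases with Adora3, was at 4.201 ± 1.72 and 3.33 ± 0.269 CPM. Camkk2, which overlaps P2rx4, was at 40.9 ± 11.7 and 43.5 ± 14.04 CPM, and Tctn3, 41 bases from Entpd1 on the other strand, at 15.5 ± 14.6 and 14.6 ± 6.38 CPM. Arhgef17, 5468 bases from P2ry6, was at 34.5 ± 54.4 CPM in Vehicle and 6.40 ± 3.10 CPM in GW2580 libraries (log2 fold change -2.43 ± 0.79 SE; edgeR adjusted p = 0.280).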
